A study of Homo sapiens with 2 samples.

Results

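The genes described here are 10 genes of actin filaments and the proteins that bind along them: the cytoplasmic actins ACTB and ACTG1, the tropomyosins TPM1, TPM2, TPM3 and TPM4, the caldesmon gene CALD1, the myosin light chain genes MYL6 and MYL9, and the transgelin gene TAGLN. They were taken by symbol from 33592 gene symbols listed in the libraries together, and all 10 were found. The genes were chosen by their summed UMIs in both libraries and the variance of their UMIs over cells, so those values are a description, with no test. The cells belonged to H1 (WA01), a widely used line of human embryonic stem cells, and were either WT or carried a ZNF263 homozygous KO made with Cas9. ZNF263 is a zinc finger transcription factor, and the study asked how heterogeneous WT and KO cell populations were. Each genotype had 1 single-cell RNA library from routine culture, made by capture of polyadenylated RNA on barcoded beads in microwells, with no treatment or time course. The KO sample's title calls it 1-10 KO while its deposited table is named with another KO number, so which KO line it holds rests on the genotype label alone. The labels do not say whether the KO cells are 1 clone, and which part of ZNF263 was deleted is not given in the sources used here.

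With 1 library per genotype there was no replicate check, and a difference between the libraries cannot be told apart from a difference between cultures or captures. Counts are unique molecular identifiers (UMIs), each standing for 1 captured RNA molecule. A barcode counted as a cell when it held no fewer than 1000 UMIs and 500 genes and no more than 20% mitochondrially encoded UMIs, which left 2935 WT cells (median 1328 UMIs) and 2286 KO cells (median 1289.5 UMIs). These cells held 7.68% of the WT and 6.54% of the KO UMIs. ZNF263 itself stood at 17.8 CPM (UMIs scaled to a fixed library total) in WT cells from 83 UMIs and at 7.57 CPM in KO cells from 27. Of 12 stem cell markers, 12 were measured, with a summed level of 4562 CPM in WT and 5487 CPM in KO cells. Mitochondrially encoded RNA summed to 45764 CPM in WT and 54482 CPM in KO cells, and a list of 8 neural markers to 948 and 492 CPM. The libraries shared 20 kept barcodes, and leaving them out moved no member's log2 ratio by more than 0.0046. All intervals are 95% intervals of counting error only.

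Actin monomers polymerise into filaments, and the cytoplasmic beta and gamma forms, encoded by ACTB and ACTG1, are near-identical proteins found in almost every cell. Tropomyosins are coiled-coil dimers that lie along the filament and set which myosins and severing proteins can act on it, while caldesmon and transgelin bind the filament alongside them. Many of these genes are known targets of serum response factor, which binds a DNA element called the CArG box and is switched on when free actin monomer runs low. Colonies of human embryonic stem cells are known for a contractile ring of actin and non-muscle myosin at their edge.

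Promoters were looked at because the CArG box is the textbook element of this family and because GGAGGA repeats are known from sites bound by ZNF263. RefSeq promoter windows of GRCh38.p14, from 250 bases before to 50 bases after a start site, were at hand for 7 of the 10 members and gave 14 windows, with none for ACTB, MYL9 or TAGLN. Both motifs were searched on both strands. The CArG box was found in 2 of the 14 windows, against 1.29% of 35116 promoters. The match in ACTG1 lay 94 bases before the start and the match in TPM4 173 bases before it. GGAGGA was found in 8 of the 14 windows, belonging to TPM2, TPM3, TPM4 and CALD1, against 36.6% of all promoters. These counts are not of separate promoters. Both TPM2 windows overlap and share a GGAGGA match, and TPM3, TPM4 and CALD1 also had several windows each. The stretches below are the 250 bases before the start in 5′ to 3′ direction, with matches to either motif in capitals (GGAGGA reads TCCTCC on the other strand). They show both members with a CArG box and, for contrast, TPM1, whose only window, at a start site inside the gene, held neither motif. The positions are chr17:81512800-81513049 on the minus strand for ACTG1, chr19:16067288-16067537 on the plus strand for TPM4 and chr15:63048239-63048488 on the plus strand for TPM1.
ACTG1: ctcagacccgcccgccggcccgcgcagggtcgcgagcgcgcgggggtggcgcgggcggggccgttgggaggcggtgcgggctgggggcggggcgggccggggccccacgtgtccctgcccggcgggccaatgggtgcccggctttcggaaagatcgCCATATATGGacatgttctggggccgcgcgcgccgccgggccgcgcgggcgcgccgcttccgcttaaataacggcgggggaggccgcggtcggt
TPM4: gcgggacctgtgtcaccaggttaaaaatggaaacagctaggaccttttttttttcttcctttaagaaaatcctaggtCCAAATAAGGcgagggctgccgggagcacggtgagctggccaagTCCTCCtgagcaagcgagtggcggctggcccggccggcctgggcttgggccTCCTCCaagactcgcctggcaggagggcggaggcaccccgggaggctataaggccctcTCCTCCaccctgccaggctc
TPM1: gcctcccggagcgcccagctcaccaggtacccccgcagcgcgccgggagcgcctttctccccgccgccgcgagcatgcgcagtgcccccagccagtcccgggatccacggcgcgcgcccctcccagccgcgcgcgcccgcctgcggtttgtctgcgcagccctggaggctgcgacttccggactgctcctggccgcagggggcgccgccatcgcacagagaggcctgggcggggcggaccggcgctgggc
The members with a CArG box in these windows, ACTG1 and TPM4, were both lower in the KO library. Of the 5 members whose windows held none, TPM2, CALD1 and MYL6 were lower too, and TPM1 and TPM3 were higher. These directions are taken against equal levels, while the median log2 ratio of all genes was -0.14. TPM4 and MYL6 lay near that background, since 43.9% and 52.0% of all genes had a lower ratio than they did. A match of letters is not a binding site, and ACTB, the member with the largest difference, had no window to read.

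The main pattern was a split between both actins. ACTB (chromosome 7, 5527148 to 5530601), which encodes cytoplasmic beta-actin, held 7728 UMIs in WT cells and 11970 in KO cells. Its level was 1662 CPM (interval 1625 to 1699) in WT and 3355 CPM (3295 to 3416) in KO cells, 2.02-fold higher (1.96 to 2.08). ACTG1 (chromosome 17, 81509971 to 81512799), which encodes cytoplasmic gamma-actin, went the other way. It held 7671 UMIs in WT and 4553 in KO cells, or 1650 CPM (1613 to 1687) against 1276 CPM (1239 to 1314), 1.29-fold lower (1.25 to 1.34). The intervals of the libraries did not overlap for either gene. The plot of summed levels by library shows both actins beside the other members.

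**Figure D1:**
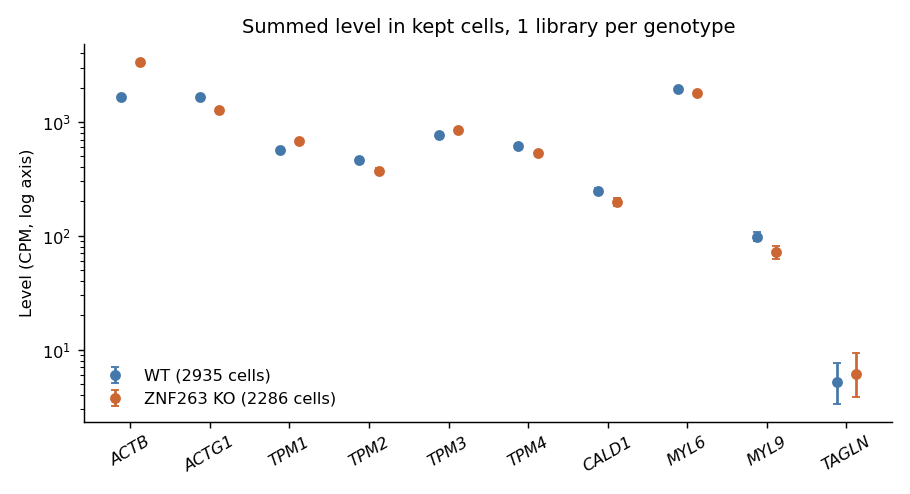
Summed level of each member in kept cells on a log axis, in CPM, for the 1 WT library (2935 cells) and the 1 ZNF263 KO library (2286 cells); bars are 95% Poisson counting intervals, hidden by the points where narrow. ACTB moved from 1662 to 3355 CPM while ACTG1 moved from 1650 to 1276 CPM, and most other members lay close together in the libraries.

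All 10 members reached the minimum mean of 5 CPM. ACTB alone was higher in KO cells by 1.5-fold or more, as were 3.94% of the 10129 genes at that minimum. No member was lower by 1.5-fold or more, as were 13.0% of genes. In all, 6 members were lower and 4 higher, where 65.2% of all genes were lower, and their median log2 ratio of -0.16 lay next to the -0.14 of all genes. The median member therefore sat near the background, while ACTB had a higher ratio than 99.1% of genes. Summed, the members held 8006 CPM in WT and 9135 CPM in KO cells, a log2 ratio of 0.19 (0.17 to 0.21). ACTB made up 20.8% of that sum in WT and 36.7% in KO cells. Among the 146 genes averaging 1000 CPM or more, none had a higher ratio than ACTB, the next being the mitochondrial gene MT-ND3 at a log2 ratio of 1.00. The median over those 146 genes was 0.09.

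Together both actins held 3311 CPM in WT and 4631 CPM in KO cells, a log2 ratio of 0.48 (0.45 to 0.52). ACTB supplied 50.2% of the actin UMIs in WT cells (49.4% to 51.0%) and 72.4% in KO cells (71.8% to 73.1%). The shift was seen in single barcodes kept as cells as well as in the sum, without separating a cell's own RNA from free RNA. The minimum of 5 actin UMIs used next kept 1464 of 2935 WT and 1695 of 2286 KO cells, and ACTB UMIs count toward it. Among cells with at least 5 actin UMIs, the median ACTB share was 50% over 1464 WT cells (quartiles 37.5% and 62.5%) and 75% over 1695 KO cells (quartiles 61.1% and 84.6%). ACTB made up most of the actin UMIs in 44.7% of those WT cells and in 87.9% of those KO cells. The ranges of single cells overlapped, since each share rests on few UMIs.

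Misassigned reads can blur this split, because the actin transcripts resemble each other. In the GENCODE transcripts compared, the coding sequences, of 1128 bases each, were identical at 91.2% of bases. After the stop codon ACTB had 601 bases and ACTG1 719, and 50.8% of the longer stretch matched. How the authors counted reads that match several genes is not given in the sources used here. Listed pseudogenes of ACTB, 9 in number, held 71 UMIs in WT and 45 in KO cells, and the 14 of ACTG1 held 28 and 18. These are 0.919% and 0.376% of the ACTB UMIs and 0.365% and 0.395% of the ACTG1 UMIs.

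Tropomyosins had about the same summed level in both libraries and a different makeup. The sum was 2394 CPM in WT and 2433 CPM in KO cells, a log2 ratio of 0.02 with an interval of -0.02 to 0.06 that includes no difference. TPM1 (chromosome 15, 63042747 to 63071915), whose transcripts serve both muscle and non-muscle filaments, held 2620 UMIs (563 CPM) in WT and 2406 (674 CPM) in KO cells, a log2 ratio of 0.26 (0.18 to 0.34). TPM3 (chromosome 1, 154155308 to 154192100), a broadly expressed tropomyosin, held 3543 UMIs (762 CPM) and 3035 (851 CPM), a log2 ratio of 0.16 (0.09 to 0.23). Both were thus higher in the KO library, by less than 1.5-fold.

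TPM2 (chromosome 9, 35681993 to 35690056), which encodes beta-tropomyosin, held 2131 UMIs (458 CPM) in WT and 1331 (373 CPM) in KO cells, a log2 ratio of -0.30 (-0.40 to -0.20). TPM4 (chromosome 19, 16067538 to 16103002), a tropomyosin of non-muscle filaments, held 2838 UMIs (610 CPM) and 1908 (535 CPM), a log2 ratio of -0.19 (-0.27 to -0.11). Both were lower in the KO library, but the interval of TPM4 included the median of all genes, -0.14. As shares of the tropomyosin UMIs, TPM1 stood at 23.5% in WT and 27.7% in KO cells, TPM3 at 31.8% and 35.0%, TPM2 at 19.1% and 15.3%, and TPM4 at 25.5% and 22.0%. TPM3 is the least certain of these, because its 7 listed pseudogenes held 459 UMIs in WT and 318 in KO cells, or 13.0% and 10.5% of its own. The gene TPM1-AS, which overlaps TPM1, held 2 and 4 UMIs.

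CALD1 (chromosome 7, 134711499 to 134970729) encodes caldesmon, which holds tropomyosin and myosin on the filament. It held 1149 UMIs in WT and 708 in KO cells, 247 CPM (233 to 262) against 198 CPM (184 to 214), a log2 ratio of -0.32 (-0.45 to -0.18). TAGLN (chromosome 11, 117199294 to 117207465), whose product transgelin is abundant in smooth muscle, held 24 UMIs in WT and 22 in KO cells. Its log2 ratio of 0.26 had an interval of -0.65 to 1.15, so no difference was detectable at this depth. PCSK7, a gene overlapping TAGLN, held 3 and 6 UMIs, and without a stated strand setting the reads of overlapping genes cannot be told apart.

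MYL6 (chromosome 12, 56158359 to 56161579), the essential light chain of non-muscle and smooth muscle myosin, held 9069 UMIs (1950 CPM) in WT and 6404 (1795 CPM) in KO cells. Its log2 ratio of -0.12 (-0.17 to -0.07) was close to the median of all genes. MYL9 (chromosome 20, 36541519 to 36551447), the regulatory light chain whose phosphorylation starts contraction, held 457 UMIs (98.3 CPM) and 255 (71.5 CPM), a log2 ratio of -0.46 (-0.69 to -0.24). MYL9 was the member with the lowest ratio, and 20.1% of all genes had a lower one.

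Kept cells hold only the deepest barcodes, so the same sums were taken over barcodes with fewer UMIs. In barcodes with 250 to under 1000 UMIs (56837 WT and 50551 KO) ACTB stood at 1815 CPM in WT and 3799 CPM in KO, a log2 ratio of 1.07, and ACTG1 at 1595 and 1301 CPM, a log2 ratio of -0.29. ACTB was again the 1 member higher by 1.5-fold or more, as were 2.79% of 10148 genes, and no member was lower by that much, as were 10.1%. Barcodes with 10 to 99 UMIs, which hold free RNA as well as any shallow cells, gave 1824 CPM in WT and 3919 CPM in KO for ACTB, and 1609 and 1292 CPM for ACTG1. The ACTB share of actin UMIs there was 53.1% in WT and 75.2% in KO. The actin split was therefore as large in barcodes too shallow to be kept as cells.

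TPM1 and CALD1 varied with depth by more than ACTB did. TPM1 had a log2 ratio of 0.36 in barcodes with 250 to under 1000 UMIs and of 0.08 (-0.07 to 0.23) in kept cells with at least 2000 UMIs (515 WT and 374 KO). CALD1 went from -0.18 at 10 to 99 UMIs to -0.32 in kept cells and -0.52 (-0.79 to -0.27) at 2000 UMIs and over. MYL9 ranged only from -0.46 to -0.39 over the 5 depths, and ACTG1, TPM2, TPM3, TPM4 and MYL6 also varied less than ACTB. ACTB had its lowest ratio, 0.90 (0.83 to 0.98), in the deepest cells. The plot of ratios by UMIs per barcode shows that the order of ACTB above all and TPM1 and TPM3 above TPM2, TPM4 and CALD1 held at each depth.

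**Figure D2:**
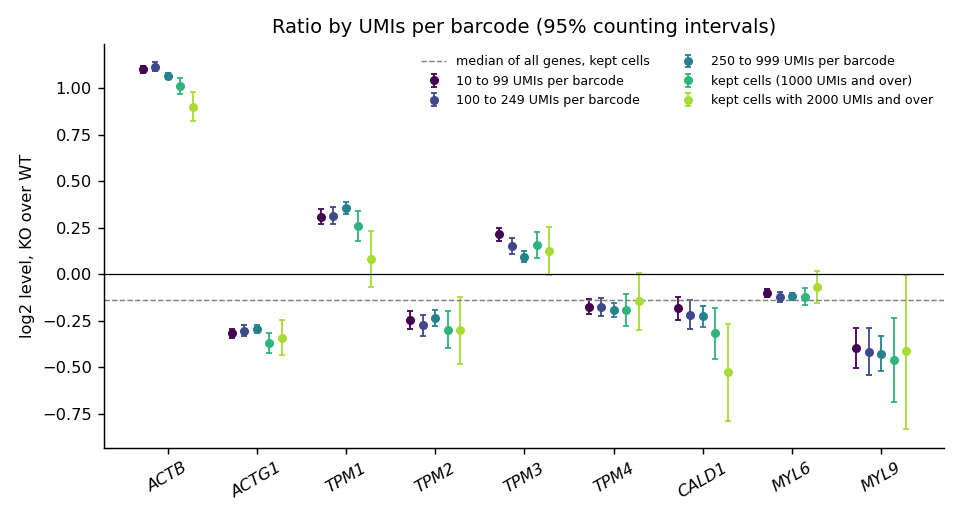
Log2 ratio of KO over WT level for 9 members (TAGLN, with few UMIs, is left out) in barcodes of 5 ranges of UMIs; points are single ratios of summed UMIs, bars 95% counting intervals, and the dashed line is the median of all genes in kept cells (-0.14). ACTB lay between 0.90 and 1.12 throughout, and TPM1 was lowest, at 0.08, in the deepest cells.

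ACTB levels also varied with the share of mitochondrially encoded UMIs in a cell, which was higher in the KO library (median 5.10% against 4.36%). In WT cells with under 2% mitochondrial UMIs ACTB stood at 2017 CPM, and in those with 10% to 20% at 1325 CPM. The same classes of KO cells stood at 4213 and 2596 CPM. Within the 4 classes of mitochondrial share the log2 ratio of ACTB was 1.06, 1.11, 1.05 and 0.97, so the difference between the libraries was about as large within each class as in the sum. ACTG1 was lower in the KO library in each class (-0.39, -0.31, -0.37 and -0.13), although in the class of 10% to 20%, with 123 WT and 184 KO cells, the interval of -0.37 to 0.10 included no difference. TPM1 had log2 ratios of 0.29, 0.42, 0.24 and -0.10, the last with an interval of -0.48 to 0.28.

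To compare cells, each was thinned at random to 1000 UMIs. After thinning, 19.8% of WT cells (18.4% to 21.3%) and 4.16% of KO cells (3.38% to 5.06%) held no ACTB UMI, and 3.51% and 27.3% held 5 or more. The median was 1 UMI in WT and 3 in KO cells, so the whole distribution lay higher in the KO library. ACTG1 moved the other way, with 0 UMIs in 21.5% of WT and 29.1% of KO cells. At least 1 TPM1 UMI was seen in 38.6% of WT cells (36.8% to 40.4%) and 48.1% of KO cells (46.0% to 50.1%), against 50.9% and 60.5% without thinning. CALD1 was seen in 20.7% and 16.6% of thinned cells (28.3% and 25.1% unthinned). Drawing 1000 UMIs from the profile of barcodes with 10 to 99 UMIs would give 42.9% and 50.1% for TPM1 and 21.6% and 19.3% for CALD1. For ACTB it would give 83.9% of WT and 98.0% of KO cells, above the 80.2% and 95.8% seen in thinned cells. These shares therefore do not separate expression in a cell from RNA free in the suspension, and no second cell type lacking these genes was at hand as a background.

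**Figure D3:**
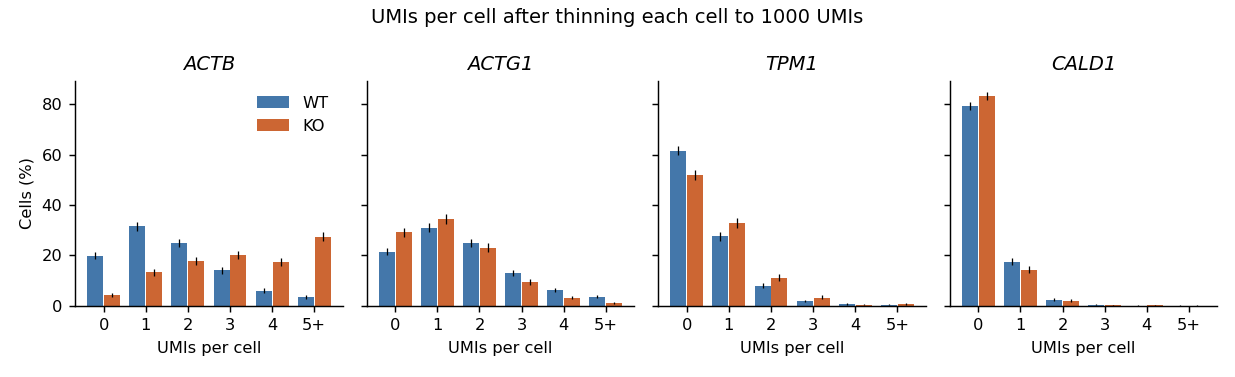
Percentage of cells with 0 to 4 or with 5 and more UMIs of ACTB, ACTG1, TPM1 and CALD1 after thinning each cell to 1000 UMIs, in 2935 WT and 2286 KO cells; bars start at 0 and lines are 95% Clopper-Pearson intervals. For ACTB the cells with 5 or more UMIs went from 3.51% in WT to 27.3% in KO, while for TPM1 and CALD1 most cells held 0 in both libraries.

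The variance of UMIs per cell divided by their mean shows how unevenly a gene is spread, with 1 expected of purely random sampling. In a single thinning draw TPM1 had 1.47 in WT and 1.23 in KO cells, CALD1 1.25 and 1.15, ACTG1 1.15 and 1.04, and ACTB 1.07 and 1.21. A difference of at least 1.1-fold was seen in 2 of 8 members on the lower side (TPM1 and ACTG1), where 2.59% of 1469 genes were, and in 1 on the higher side (ACTB), where 1.63% were. MYL9 and TAGLN fell under the minimum mean of 0.1 UMI. In 4 of 5 other draws no member was past 1.1-fold on the higher side.

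A single draw adds noise of its own, so the value was also averaged over all possible draws, an alternative chosen after seeing the data. Averaged values were 1.45 in WT and 1.21 in KO cells for TPM1, 1.33 and 1.11 for CALD1, and 1.09 and 1.21 for ACTB, while ACTG1 had a log2 ratio of -0.09. On this measure the 2 members lower by at least 1.1-fold were TPM1 and CALD1, where 1.77% of genes were, and ACTB was higher, where 0.817% were. Only 4 genes of 1469 had a lower log2 ratio than TPM1 and 3 a lower one than CALD1, and 5 had a higher one than ACTB. TPM2, TPM3, TPM4 and MYL6 stayed between 1.08 and 1.14 in WT cells and between 1.04 and 1.12 in KO cells. The CALD1 spread in WT cells rested on few cells. In the single draw 2 WT and 0 KO cells held 5 or more CALD1 UMIs, and the highest WT cell held 9. Over the 4 classes of mitochondrial share, from low to high, CALD1 in that draw was at 1.51, 1.03, 1.32 and 0.92 in WT cells. In KO cells it was at 1.09, 1.18, 1.18 and 0.95. In barcodes with 250 to under 1000 UMIs, thinned to 250, TPM1 stood at 1.05 in both libraries, against 1.11 in WT and 1.05 in KO kept cells at that depth. In kept cells TPM1 thus had a higher mean and a lower relative spread in the KO library, and ACTB a higher mean and a higher variance over mean. Variance over mean above 1 grows with the mean, so the excess over 1 was also divided by the mean in the single draw. By that measure ACTB was at 0.0425 in WT and 0.0610 in KO cells, and TPM1 at 0.844 and 0.325. The excess of ACTB was thus small against its mean in both libraries. Which library was higher by that measure depended on the draw. The draw used had the lowest WT value of ACTB among 6 draws, which ranged from 1.07 to 1.14 in WT and from 1.18 to 1.26 in KO cells. In another draw ACTB had 1.14 at a mean of 1.68 UMIs in WT and 1.18 at a mean of 3.42 in KO cells. There the excess against the mean was larger in WT cells. The plot of variance over mean shows TPM1 and CALD1 below the diagonal and ACTB above it.

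**Figure D4:**
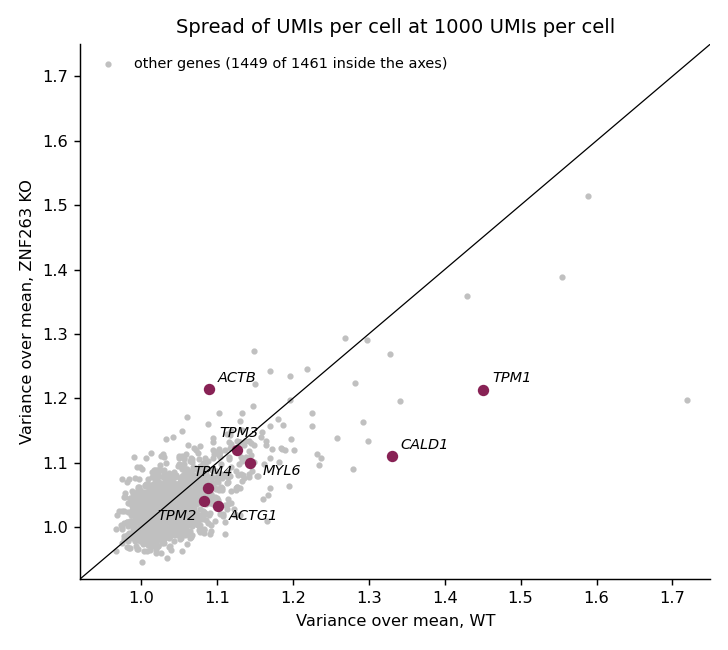
Variance over mean of UMIs per cell at 1000 UMIs per cell, averaged over all thinning draws, for 1469 genes in WT cells (x axis) and KO cells (y axis); members are dark points, other genes grey, and the line marks equal values. TPM1 (1.45 and 1.21) and CALD1 (1.33 and 1.11) lay below the line and ACTB (1.09 and 1.21) above it.

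The spread of TPM1 was looked at cell by cell. The cells with at least 4 thinned TPM1 UMIs, a limit chosen after the values were seen, numbered 35 in WT and 23 in KO. In the WT library those cells held 1.23 CALD1 UMIs per cell (0.89 to 1.65) against 0.238 in the others, and 0.543 MYL9 UMIs (0.327 to 0.848) against 0.0931. They also held more ACTG1 (2.77 against 1.63 UMIs per cell) and more MYL6 (2.94 against 1.97). TPM3 went the other way, at 0.457 (0.261 to 0.742) against 0.762. ACTB was at 1.77 against 1.67, with an interval of 1.36 to 2.27 that holds the value of the other cells. In the KO library the same choice gave 0.261 CALD1 UMIs per cell (0.0957 to 0.568) against 0.192, and 0.261 MYL9 UMIs (0.0957 to 0.568) against 0.0711. ACTG1 was higher in those KO cells too, at 1.87 (1.35 to 2.52) against 1.26, and MYL6 was at 1.96 (1.43 to 2.62) against 1.80. The CALD1-rich profile of TPM1-rich cells was thus seen in the WT library, and in the KO library CALD1 was within counting error of the other cells. This difference between the libraries rests on 43 and 6 CALD1 UMIs and has no test.

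The muscle actin ACTC1, which encodes cardiac alpha-actin and is not a member, went with TPM1 in both libraries, a pattern noticed after its values were seen. Cells with at least 4 TPM1 UMIs held 0.829 ACTC1 UMIs per cell (0.555 to 1.19) in WT against 0.0569 in the others, and 1.17 (0.774 to 1.71) in KO against 0.0676. Its own spread was wide, with a variance over mean of 1.61 in WT and 1.81 in KO cells and up to 7 UMIs in a thinned cell of each library. The 20 WT and 16 KO cells with at least 2 ACTC1 UMIs, 0.681% and 0.700% of cells, held 27.8% and 28.9% of all ACTC1 UMIs. UMIs scattered over cells at the same mean would give 6.14 and 6.73 such cells on average. TPM1 stood at 2.75 UMIs per cell in those WT cells against 0.538 in the others, and at 3.06 in those KO cells against 0.681. TPM2 was also higher there, at 0.850 against 0.466 in WT and 0.938 against 0.353 in KO cells. MYL9 was higher too, at 0.45 against 0.0961 in WT and 0.3125 against 0.0714 in KO cells. For TPM2 and MYL9 the intervals did not overlap within either library. CALD1 (0.85 against 0.245) and ACTG1 (2.9 against 1.63) were higher without overlap in WT cells, while their intervals overlapped in KO cells. TPM3 was at 0.650 against 0.760 in WT and at 1.06 against 0.859 in KO cells. Also lower, with overlapping intervals, were MYL6 and TAGLN in WT and TPM4 in KO cells. ACTC1 as a whole was at 66.7 CPM in WT and 76.0 CPM in KO cells. In both libraries, then, the few cells with most ACTC1 UMIs were also high in TPM1.

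Markers in the TPM1-rich cells were read from the lists used for the marker check. Cardiac and skeletal muscle markers summed to 31 UMIs in the 35 WT cells, 29 of them ACTC1, and to 28 UMIs in the 23 KO cells, 27 of them ACTC1. Smooth muscle markers summed to 2 and 0 UMIs, the latter allowing up to 0.130 per cell at a limit of 3 counts. Fibroblast markers stood at 0.286 UMIs per cell (0.137 to 0.525) against 0.0569 in WT and at 0.130 (0.0269 to 0.381) against 0.0597 in KO cells. Stem cell markers stood at 2.86 per cell (2.32 to 3.48) against 4.48 in WT cells and at 5.35 (4.44 to 6.38) against 5.47 in KO cells. TPM1-rich cells thus had fewer stem cell marker UMIs than the rest in the WT library, and about as many as the rest in the KO library. VIM, an intermediate filament gene, stood at 2.77 against 1.02 in WT and 1.96 against 0.668 in KO cells, and ANXA1, which encodes annexin A1, at 0.600 against 0.0183 and 0.304 against 0.0128. Both genes were named after their values were seen. The 35 WT cells had a median of 1364 UMIs and 5.89% mitochondrial UMIs against 1328 and 4.36% in the others, while the 23 KO cells had 1273 UMIs and 4.20% against 1290 and 5.11%. The mitochondrial share of TPM1-rich cells thus lay on opposite sides of the rest in the libraries. Doublets were not called, so their part was not tested.

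Across all cells the members hardly varied together. The 36 pairs of members other than TAGLN had Pearson correlations of -0.05 to 0.16 over 2935 WT cells and of -0.04 to 0.08 over 2286 KO cells, with medians of 0.03 and 0.01, which in such sparse counts are weak. Likeness was ranked over 1468 genes with a mean of at least 0.1 thinned UMI in both libraries. Those most like TPM1 over WT cells were CALD1 (0.16), VIM (0.15), AKAP12 (0.10), ACTG1 (0.10) and SPARC (0.08), with 0.04, 0.09, 0.03, 0.01 and 0.01 over KO cells. Those most like CALD1 were TPM1, VIM (0.11), CHD4 (0.07), RPN2 (0.07) and ZNHIT1 (0.07). ACTC1 and MYL9, under that minimum and so not ranked, had correlations with TPM1 of 0.19 and 0.15 over WT cells and of 0.20 and 0.08 over KO cells. Without the TPM1-rich cells the WT correlation of TPM1 with CALD1 was 0.06 and with VIM 0.05; taking out cells by their TPM1 count lowers such a correlation by construction.

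In the WT library 35 cells held at least 5 thinned UMIs of CRABP1, a retinoic acid binding protein of neural cells, against 0 of 2286 KO cells, which at the same limit of 3 counts allows a share of up to 0.131%. TPM1 stood at 0.229 UMIs per cell in them (0.0987 to 0.450) against 0.557 in the rest, and ACTB at 1.20 (0.865 to 1.62) against 1.67. Both members were thus lower in the CRABP1-rich cells. Without those cells the variance over mean of TPM1 in WT cells was 1.47, as with them.

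Around the members, 99 further genes of the actin cytoskeleton were listed in 11 groups by function, of which 86 reached 5 CPM. Of the 86, 56 were lower and 30 higher in the KO library, which is near the 65.2% of all genes that were lower, and 9 of the lower and 3 of the higher ones differed by 1.5-fold or more. That is 10.5% and 3.49%, near the 13.0% and 3.94% of all genes, and their median log2 ratio was -0.11. The actin monomer binding and severing group held 4 of those 9, out of 11 measured, with a median of -0.29. GSN, the severing protein gelsolin, was at 31.2 CPM in WT and 14.3 CPM in KO cells (log2 ratio -1.13), TMSB10, a thymosin that holds actin monomers, at 773 and 429 CPM (-0.85), and CFL2, a cofilin that severs filaments, at 33.5 and 19.6 CPM (-0.77). PFN1, the profilin that feeds monomers to filament ends, was at 1222 and 1137 CPM (-0.10), and TMSB4X at 1534 and 1552 CPM (0.02); both were named after their values were seen. Of the 11 measured genes of the group 9 were lower and 2 higher, and 36.4% were lower by at least 1.5-fold, against 13.0% of all genes. The group was thus mostly lower, with differences of unlike size.

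Among partners of MYL6 and MYL9, the non-muscle myosin group had 7 of 9 genes lower and 1 at least 1.5-fold lower, with a median of -0.21, which is near the shares of all genes given above. The heavy chains MYH9 and MYH10 stood at log2 ratios of -0.54 and -0.25, and the light chain MYL6B at -0.46. Of 10 crosslinking and bundling genes, 7 were lower, 1 by at least 1.5-fold, among them MARCKS (-0.59) and MARCKSL1 (-0.56), which bind filaments at the membrane, while LIMA1 was at 0.31. CAPZA1, of the filament capping group, encodes a subunit that caps filament ends. It was 1 of the 3 genes among all 86 that were at least 1.5-fold higher, at 134 CPM in WT and 229 CPM in KO cells (0.77). Its paralog CAPZA2 was at -0.17. In the ARP2/3 and nucleator group 11 of 16 were lower, also near the share of all genes, none by 1.5-fold, and CTTN, the branch-stabilising cortactin, was higher by more than that (0.69). The plot of the 11 groups shows this spread on both sides of 0.

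**Figure D5:**
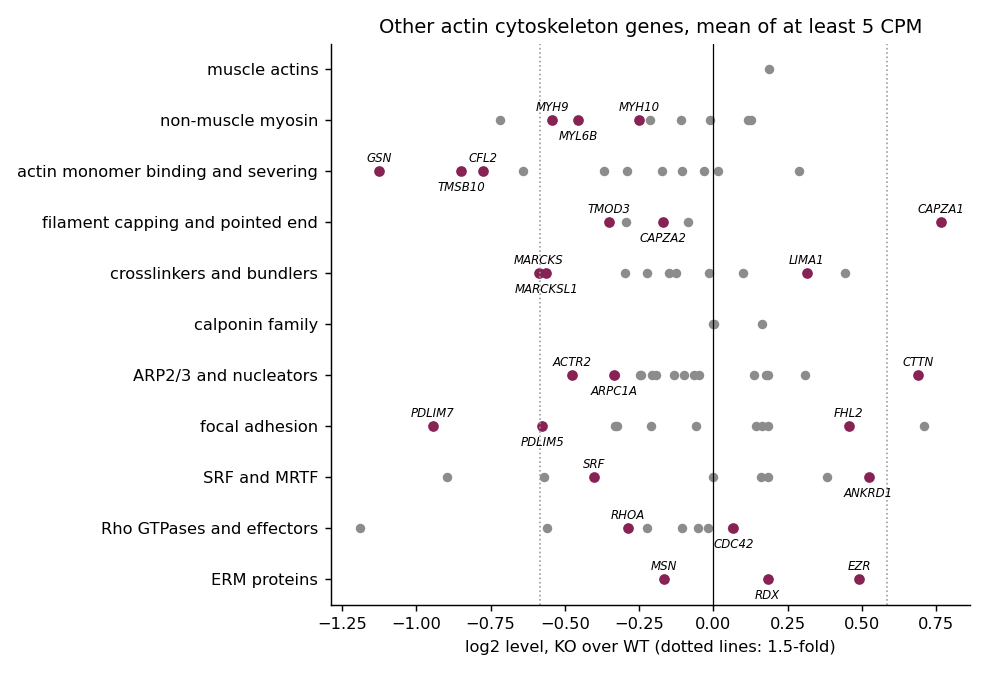
Log2 ratio of KO over WT level in kept cells for 86 further genes of the actin cytoskeleton in 11 groups, each point 1 gene that reached 5 CPM; named genes are dark and dotted lines mark 1.5-fold. Points lie on both sides of 0, with 9 beyond the left line and 3 beyond the right one.

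In the focal adhesion group 6 of 11 genes were lower and 5 higher, with PDLIM7 at -0.95 and FHL2 at 0.46. SRF, the serum response factor gene itself, was at 45.2 CPM in WT and 34.2 CPM in KO cells (log2 ratio -0.40, interval -0.74 to -0.07). Its group of 8 split into 4 lower and 4 higher, with ANKRD1 at 0.52. Of these 8 genes 1 was at least 1.5-fold lower, or 12.5% against 13.0% of all genes, and 0 were higher by that much. The lower one was CCN2, at 18.3 CPM in WT and 9.81 CPM in KO cells (-0.90, interval -1.51 to -0.31). MRTFB, counted as lower, was at -0.0024 (-0.67 to 0.65). CCN2 and MRTFB were named after their values were seen. RHOA, the switch upstream of myosin light chain phosphorylation, was at -0.29, and CDC42 at 0.07, with an interval of -0.06 to 0.20. Of the ERM proteins, which tie filaments to the membrane, EZR was at 0.49, RDX at 0.18 and MSN at -0.17, the last with an interval of -0.43 to 0.09. No measured gene of the calponin family, relatives of TAGLN, was past 1.5-fold.

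Cells of other kinds could carry some of these genes. Of 8 fibroblast markers 2 were measured, summing to 60.6 CPM in WT and 58.3 CPM in KO cells, with DCN and FAP at 0. Within that list COL1A1 held 63 UMIs in WT and 85 in KO cells (log2 ratio 0.81, interval 0.33 to 1.31), COL1A2 held 185 and 118 (-0.27, interval -0.61 to 0.07), and COL3A1 held 24 and 0, so near-equal sums hide genes that went opposite ways. Of 8 smooth muscle markers 2 were measured, summing to 27.3 and 23.8 CPM, and of 8 cardiac and skeletal muscle markers 2, one of them ACTC1, summing to 97.8 and 103 CPM. The sums of neural markers and of mitochondrially encoded RNA differed with genotype, as given above, and their part in the member differences was not tested beyond the values within mitochondrial classes.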

How the data were processed

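Single-cell RNA was measured in 1 WT and 1 ZNF263 KO library of H1 cells. The deposited values are raw UMI counts of the authors for each pair of gene and barcode. According to the submitters' processing notes, STAR 2.7.10a, UMI-tools 1.1.2, Subread and featureCounts 2.0.1 were used with the build hg38, in roles not named. The annotation, the strand setting and filters on barcodes were not given in the sources used here. All entries were read, including 15 in the KO table beyond the number its size line gives. The libraries held 60578040 WT and 54559376 KO UMIs.

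For each gene the counts of all kept cells were added and expressed as CPM, with exact Poisson intervals; ratios have exact conditional binomial and shares exact Clopper-Pearson intervals. Cells are not replicates, so no p-value was computed. Doublets were not called; an alternative left out cells over 4 times the median UMI count. Cells were thinned to 1000 UMIs, which left out 0. Members and gene lists were chosen with earlier results of these data known. Named in each list were up to 3 genes with the largest log2 ratio at a mean of at least 20 CPM and 1 direction under each planned scaling and cell filter; the 5 most like TPM1 and CALD1 were named by correlation. Alternatives changed the cell filter, scaling, averaging, low-level filter, thinning depth and draw. Coordinates are from the RefSeq table of GRCh38. Functions were tested on simulated data. NumPy 2.4.6 and SciPy 1.17.1 were used.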

Additional observations from a re-analysis of the deposited data

How the results depend on the processing

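Under 8 alternatives for cell filter, scaling and averaging, each member but TAGLN kept the direction of its level ratio. ACTB ranged from 0.90 to 1.13, ACTG1 from -0.38 to -0.25, TPM1 from 0.08 to 0.37 and CALD1 from -0.52 to -0.20, while TAGLN ranged from -0.82 to 0.50 and kept its direction in 6 of 8. Setting the median gene ratio to 1 raised every log2 ratio by 0.12. With at least 2000 UMIs per cell, 1 member (TAGLN, with 12 and 5 UMIs) was at least 1.5-fold lower; the count of members at least 1.5-fold higher was 1 under every alternative.

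Variance over mean depended on the draw and the depth of thinning. Members lower by at least 1.1-fold numbered 1 when thinned to 500 UMIs and 0 in barcodes with at least 250 UMIs thinned to 250. Members higher by at least 1.1-fold numbered 0 in both of these and in 4 of 5 other draws. With at least 2000 UMIs they numbered 2 in a single draw, TPM3 (0.18) and TPM4 (0.20), and ACTB was no longer among them at 0.052. Averaged over all draws in those cells, TPM3 stood at 0.084 and TPM4 at 0.026, both under 1.1-fold, and ACTB at 0.23. Over 6 draws the log2 ratio ranged from -0.33 to -0.22 for TPM1, from -0.37 to -0.12 for CALD1, from -0.16 to -0.05 for ACTG1 and from 0.055 to 0.23 for ACTB. When thinned to 500 UMIs the ratio of CALD1 was -0.00046, although averaged over all draws at that depth it was -0.14. The ratio of ACTG1 turned to 0.026 when thinned to 500 UMIs and to 0.0041 at 250 UMIs, and that of TPM1 to 0.013 at 250 UMIs; thinning to fewer UMIs brings any variance over mean closer to 1. Averaged over all draws at 250 UMIs, TPM1 was at 1.11 in WT and 1.05 in KO cells among kept cells and at 1.05 in both among barcodes with 250 to under 1000 UMIs; the cause was not tested. No paired analysis was possible because each genotype had 1 library. TAGLN, with 24 and 22 UMIs, is limited by depth, and the TPM1-rich cells by their number.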
